A study of Homo sapiens with 4 samples.

Results

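The E2F family (E2F1 to E2F8), MYBL2 and FOXM1 are the transcription factors that switch cell cycle genes on and off. All 10 were selected by gene symbol from the 23444 entries of the deposited tables, and all 10 passed the filter on low counts that left 15293 genes to be tested. RNA was sequenced in 4 libraries from U87-MG, a long-established line of human glioblastoma cells. The 2 shMAGED2 libraries came from cells with a short hairpin RNA against MAGED2, a member of the MAGE gene family, and the 2 shCON libraries from cells of the same line with a negative control hairpin. The series design describes a stable knockdown, whereas the treatment protocol in the labels names ZDHHC15 as the hairpin target, with transient transfection and harvest at 36 h. The number of hairpins or clones was not given in the sources used here.

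E2F factors bind promoters of genes for DNA replication and the G1/S transition. E2F1, E2F2 and E2F3 are the activators, held in check by the retinoblastoma protein RB1 until cyclin-dependent kinases phosphorylate it. E2F4 and E2F5 act mostly as repressors with the pocket proteins RBL1 and RBL2, E2F6 represses within a Polycomb complex without pocket proteins, and E2F7 and E2F8 are atypical repressors that bind DNA without a DP partner. MYBL2 (B-MYB) joins the MuvB complex in S phase, and FOXM1 joins it later, to turn on genes of G2 and mitosis. Several of these genes are themselves known targets of E2F. In glioblastoma, where the RB1 pathway is often disrupted, these factors are known as markers of proliferating cells.

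The libraries held 31160205 and 36234336 counts in shMAGED2 replicates 1 and 2 and 34235565 and 28673774 in shCON replicates 1 and 2. Nothing in the labels says that replicates were separate cultures, so p-values measure the spread between these libraries, which may be technical. The shMAGED2 pair differed from each other more than the shCON pair (chi-square per degree of freedom 89.5 and 7.42, with 136.9 to 222.5 across groups), and members whose 2 shMAGED2 libraries diverge are pointed out below. MAGED2 had 526 and 795 counts in shMAGED2 and 6090 and 5225 in shCON, which left 11.2% of the level in shCON (log2 change −3.16, SE 0.13; edgeR, Benjamini-Hochberg adjusted p = 0.000654), and ZDHHC15 had 0 counts in all 4 libraries, where 3 counts would be 0.0817 to 0.102 CPM (counts scaled to the TMM-normalised library total; a limit for counting error only). Of the glial markers, SOX2, OLIG1, S100B and PTPRZ1 were at or near 0 in all 4 libraries and GFAP at no more than 3.03 CPM, while the mesenchymal markers VIM and CD44 lay between 882.5 and 8799 CPM. Over the 7 glial markers the summed level was 22.1 and 22.5 CPM in shMAGED2, against 12.7 and 14.6 CPM in shCON. The higher sum came from NES, which rose to 19.3 and 18.8 CPM in shMAGED2, against 4.73 and 5.66 CPM in shCON. Of the 3 tested, OLIG2 fell and GFAP did not pass, though it was lower in both shMAGED2 libraries. Of 6 mesenchymal markers, CHI3L1 fell and 5 did not pass, with sums of 13500 and 11460 CPM in shMAGED2, against 12260 and 11920 CPM in shCON. The part of these shifts in the results below was not tested. The leukocyte marker PTPRC and the epithelial marker EPCAM stayed under 1 CPM in all 4 libraries, whereas CD68, a macrophage marker, had 601.6 and 379.9 CPM in shMAGED2, against 463.2 and 457.3 CPM in shCON. The neuronal markers SYT1 and SNAP25 lay between 9.95 and 27.4 CPM and RBFOX3 at no more than 0.599 CPM, and the endothelial markers PECAM1, VWF and CDH5 at no more than 2.28 CPM. None of the genes in these 4 lists passed the test. In bulk RNA, a larger share of cycling cells and more RNA of these genes per cell cannot be told apart.

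Promoter sequences show the motif through which E2F factors are known to act on several of their own genes. Windows from 250 bases before to 50 after the start were taken from RefSeq (GRCh38.p14, the assembly that the label hg38 also names) and were found for 7 of the 10 genes. E2F5, E2F8 and FOXM1 had no entry. The strict E2F motif was any of TTTCCCGC, TTTCGCGC, TTTGCCGC and TTTGGCGC on either strand. A relaxed motif, chosen after the promoters had been seen, was any of TTCCCGC or TTCCCGG or TTCGCGC or TTCGCGG or TTGCCGC or TTGCCGG or TTGGCGC or TTGGCGG, and contains the strict one. Shown are the 80 bases before the start of E2F1 (chr20:33686386-33686465, minus strand), E2F2 (chr1:23531234-23531313, minus strand), E2F3 (the upstream of its 2 listed starts, chr6:20401799-20401878, plus strand) and E2F4 (chr16:67192075-67192154, plus strand), and 30 bases of MYBL2 (chr20:43667060-43667089, plus strand; positions −54 to −25). They are printed 5′ to 3′ along the gene, with matches to either motif in capitals, because 4 of these genes rose and E2F3 did not pass the test.
E2F1: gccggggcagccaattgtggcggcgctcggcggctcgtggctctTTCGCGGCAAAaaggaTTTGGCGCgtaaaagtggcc
E2F2: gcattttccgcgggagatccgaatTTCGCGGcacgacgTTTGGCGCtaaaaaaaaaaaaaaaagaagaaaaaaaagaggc
E2F3: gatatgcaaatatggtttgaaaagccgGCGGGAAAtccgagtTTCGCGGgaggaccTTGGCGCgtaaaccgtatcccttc
E2F4: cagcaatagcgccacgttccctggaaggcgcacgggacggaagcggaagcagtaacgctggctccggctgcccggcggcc
MYBL2: ggcgccgacgcgcTTGGCGGgagatagaaa
The strict motif was found in the windows of E2F1, E2F2 and E2F3, at −20 to −13 and −33 to −26 in E2F1 (the second read on the opposite strand, overlapping a relaxed match), at −42 to −35 in E2F2 and at −53 to −46 in E2F3. It was present in 3.31% of all 35116 promoter windows of this length. The relaxed motif occurred in 23.7% of all windows and in a window of 6 of the 7 genes, at −41 to −35 in MYBL2. The 7 genes had 8 windows, and that of the downstream E2F3 start held neither the strict nor the relaxed motif. E2F4 had neither. Relaxed matches were found in 3 genes that rose (E2F1, E2F2 and MYBL2) and in 3 that did not pass the test (E2F3, E2F6 and E2F7), and a match is not evidence of binding.

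Transcripts of most of these factors were more abundant after MAGED2 knockdown. Of the 10 members, 6 rose and 0 fell in shMAGED2 at an adjusted p under 0.05, against 12.3% of all tested genes that rose and 11.6% that fell; none was lower at an unadjusted p under 0.05, or in DESeq2. E2F1, E2F2, E2F4, E2F8, MYBL2 and FOXM1 rose, and E2F3, E2F5, E2F6 and E2F7 did not pass. Changes of at least 2-fold were found in 5 members, against 4.43% of all tested genes, and of at least 4-fold in 3 (E2F2, E2F8 and MYBL2), against 0.844%. The median log2 change was 0.99 over the 10 members and 0.00 over all tested genes. Both shMAGED2 libraries lay above both shCON libraries for 7 members, as for 33.1% of all tested genes, and below them for 0, as for 33.0%.

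**Figure D1:**
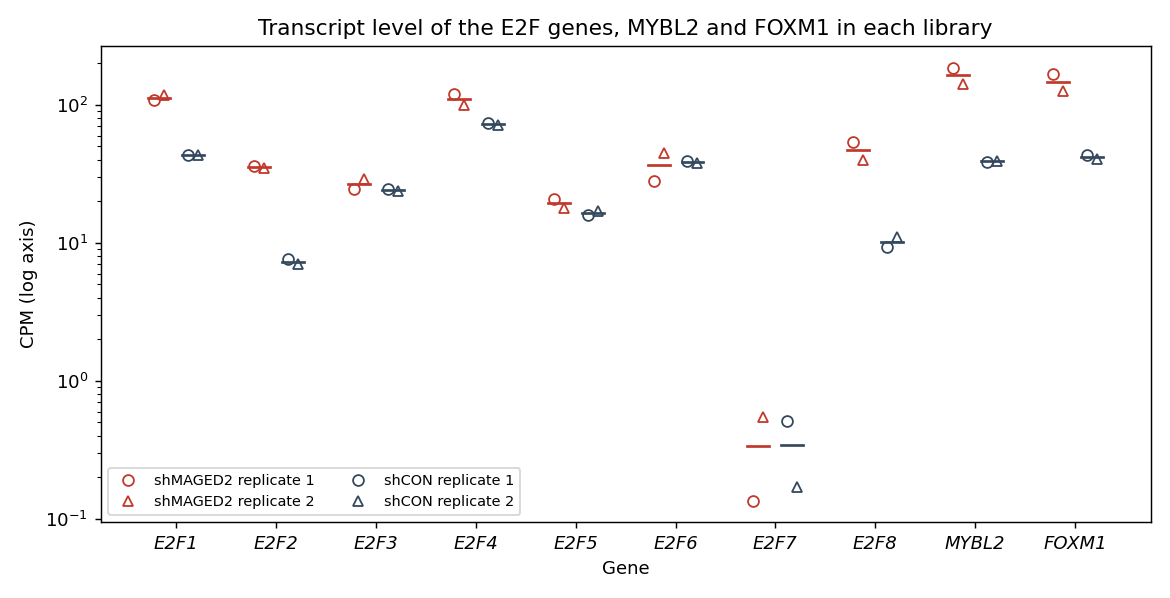
Level of each member in CPM (log axis), with shMAGED2 libraries in red to the left of shCON libraries in dark blue; circles are replicate 1, triangles replicate 2 and lines group means of n = 2. The groups lie clearly apart for E2F1, E2F2, E2F8, MYBL2 and FOXM1, whereas the E2F6 and E2F7 libraries of shMAGED2 lie on both sides of shCON.

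Of the activators, E2F1 and E2F2 rose and E2F3 did not pass. E2F1 (ENSG00000101412, chromosome 20, 33675683 to 33686404, minus strand; this and the following coordinates are from GENCODE 29 on hg38) is the founding activator, which drives S phase genes and in excess can also trigger apoptosis. It had 3195 and 4307 counts in shMAGED2 replicates 1 and 2, against 1510 and 1268 in shCON. Scaled to library size, this was 108 and 117 CPM in shMAGED2 and 43.3 and 43.2 CPM in shCON. Both knockdown libraries stood far above the controls, which were nearly equal. The mean was 113 ± 6.23 CPM in shMAGED2 and 43.2 ± 0.0260 CPM in shCON (SD, n = 2 each). This was a log2 change of 1.38 (SE 0.10; edgeR with Benjamini-Hochberg adjusted p = 0.00106).

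E2F2 (ENSG00000007968, chromosome 1, 23506430 to 23531220, minus strand), an activator with much the same targets as E2F1, had the largest log2 change of the members. Its counts were 1060 and 1280 in shMAGED2 and 265 and 207 in shCON. These corresponded to 36.0 and 34.8 CPM in shMAGED2, against 7.59 and 7.06 CPM in shCON. The replicates of each group were close and the groups did not overlap. The log2 change was 2.27 (SE 0.14; edgeR, Benjamini-Hochberg adjusted p = 0.000799), the 144th highest change among all 15293 genes tested and the 64th smallest p.

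E2F3 (ENSG00000112242, chromosome 6, 20401906 to 20493715, plus strand) is the third activator, and its locus is known to be gained in some tumours. It had 24.7 and 29.1 CPM in shMAGED2, against 24.7 and 23.9 CPM in shCON. The lower knockdown library lay between the controls, so the groups overlapped. Its log2 change was 0.15 (SE 0.14; edgeR, Benjamini-Hochberg adjusted p = 0.493). GENCODE names 2 pseudogenes of E2F3, and how the counting treated reads that match several places is not given.

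Of the pocket protein-dependent repressors, E2F4 rose by a smaller amount and E2F5 did not pass. E2F4 (ENSG00000205250, chromosome 16, 67192169 to 67198918, plus strand), the main E2F of the quiescence complex DREAM, had 3547 and 3651 counts in shMAGED2 and 2584 and 2099 in shCON. Its levels were 120 and 99.4 CPM in shMAGED2, against 74.0 and 71.5 CPM in shCON. Both knockdown libraries were above the controls, with replicate 1 the higher of the pair. This gave a log2 change of 0.59 (SE 0.12; edgeR, Benjamini-Hochberg adjusted p = 0.0207). This call ended without shCON replicate 1 (0.62, edgeR adjusted p = 0.145) and without shCON replicate 2 (0.57, edgeR adjusted p = 0.163).

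E2F5 (ENSG00000133740, chromosome 8, 85177225 to 85217158, plus strand), the partner of RBL2 in the same kind of complex, had 20.7 and 17.9 CPM in shMAGED2, against 15.98 and 17.1 CPM in shCON. The groups did not overlap, but the gap between the nearest libraries was smaller than the spread within shMAGED2. Its log2 change was 0.22 (SE 0.15; edgeR, Benjamini-Hochberg adjusted p = 0.336). Exons of E2F5 overlap those of C8orf59 on the opposite strand, which had 26.0 ± 2.29 CPM in shMAGED2 and 19.4 ± 1.12 CPM in shCON (SD, n = 2 each), and it is not stated whether reads were counted by strand.

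E2F6 (ENSG00000169016, chromosome 2, 11444375 to 11466177, minus strand), which lacks the pocket protein-binding and activating parts of the other factors, gave discordant replicates. It had 832 and 1637 counts in shMAGED2, against 1361 and 1116 in shCON. This was 28.2 and 44.6 CPM in shMAGED2, and 39.0 and 38.0 CPM in shCON. One knockdown library lay below both controls and the other above both. Over both libraries the log2 change was −0.08 (SE 0.22; edgeR, Benjamini-Hochberg adjusted p = 0.825). Without shMAGED2 replicate 1 it was 0.21 (edgeR adjusted p = 0.119), and without shMAGED2 replicate 2 it was −0.45 (edgeR adjusted p = 0.0025), so that its direction depends on 1 library. GENCODE names 4 pseudogenes of E2F6.

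The atypical repressors differed sharply in level. E2F8 (ENSG00000129173, chromosome 11, 19224063 to 19241620, minus strand), which represses E2F1 and other G1/S genes in S and G2 phase, had 1585 and 1476 counts in shMAGED2 and 324 and 324 in shCON. Scaled, it had 53.8 and 40.2 CPM in shMAGED2, against 9.28 and 11.0 CPM in shCON. The groups were far apart, and replicate 1 was the higher of the knockdown pair. The log2 change was 2.21 (SE 0.19; edgeR, Benjamini-Hochberg adjusted p = 0.00158). An antisense gene, AC009652.2, overlaps its exons in GENCODE and is not an entry of the deposited tables.

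E2F7 (ENSG00000165891, chromosome 12, 77021247 to 77065580, minus strand), which acts together with E2F8, was barely detected. It had 4 and 20 counts in shMAGED2, against 18 and 5 in shCON. Scaled for library size, the summed counts of shMAGED2 over shCON gave a ratio of 1.01 (95% interval 0.547 to 1.88, exact conditional binomial, counting error only). Each group held 1 library with few counts and 1 with more, and a change of E2F7 was not detectable at this depth (edgeR log2 change 0.00, SE 0.99; Benjamini-Hochberg adjusted p = 0.999).

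MYBL2 and FOXM1, the factors of the later cell cycle, rose together. MYBL2 (ENSG00000101057, chromosome 20, 43667019 to 43716496, plus strand) had 5493 and 5190 counts in shMAGED2 and 1353 and 1150 in shCON. Its levels were 186.4 and 141.3 CPM in shMAGED2, against 38.8 and 39.2 CPM in shCON. The controls were nearly equal and the knockdown libraries well above them, replicate 1 higher than replicate 2. The log2 change was 2.07 (SE 0.15; edgeR, Benjamini-Hochberg adjusted p = 0.0011).

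FOXM1 (ENSG00000111206, chromosome 12, 2857681 to 2877155, minus strand), a forkhead factor that drives mitotic genes, had 4922 and 4642 counts in shMAGED2 and 1512 and 1190 in shCON. This corresponded to 167 and 126 CPM in shMAGED2, against 43.3 and 40.6 CPM in shCON. It showed the same order of libraries within the knockdown pair as MYBL2, E2F8 and E2F4. The log2 change was 1.81 (SE 0.16; edgeR, Benjamini-Hochberg adjusted p = 0.00153). ITFG2, whose exons overlap FOXM1 on the opposite strand, had 11.9 ± 2.79 CPM in shMAGED2 and 13.1 ± 1.16 CPM in shCON (SD, n = 2 each).

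**Figure D2:**
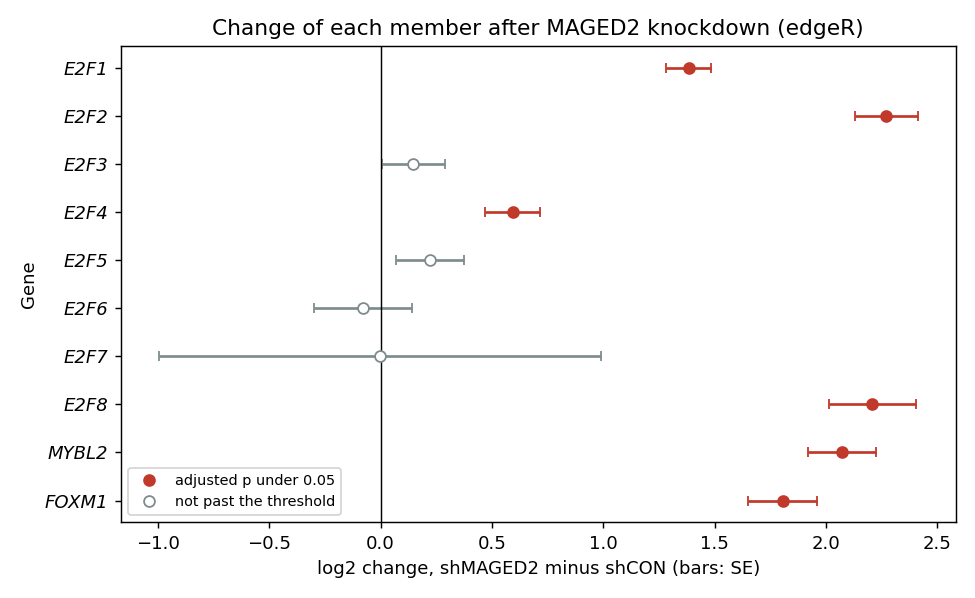
Log2 change of each member, shMAGED2 minus shCON (edgeR), with bars of 1 SE; filled red points passed an adjusted p of 0.05 and open grey points did not. E2F2, E2F8 and MYBL2 lie above 2, FOXM1 at 1.81, E2F1 at 1.38 and E2F4 at 0.59, and the wide bar of E2F7 (SE 0.99) reflects its 4 to 20 counts per library.

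Levels of different genes are compared on the deposited FPKM scale, which is relative to gene length. In shMAGED2 the order from high to low was MYBL2 (58.0 ± 8.59 FPKM), E2F4 (49.4 ± 4.26), E2F1 (42.6 ± 4.41), FOXM1 (40.8 ± 5.74), E2F8 (13.2 ± 2.02), E2F6 (11.5 ± 4.49), E2F5 (6.86 ± 0.280), E2F2 (6.43 ± 0.164), E2F3 (5.50 ± 0.711) and E2F7 (0.0537 ± 0.0487; SD, n = 2 throughout). In shCON it was E2F4 (34.1 ± 0.812 FPKM), E2F1 (17.0 ± 0.0179), MYBL2 (14.4 ± 0.0521), E2F6 (12.1 ± 1.37), FOXM1 (12.0 ± 0.389), E2F5 (6.33 ± 0.381), E2F3 (5.13 ± 0.229), E2F8 (3.01 ± 0.320), E2F2 (1.38 ± 0.0689) and E2F7 (0.0576 ± 0.0407; SD, n = 2). Neighbours whose libraries overlapped were MYBL2 and E2F4, E2F1 and FOXM1, and E2F8 and E2F6 in shMAGED2, and E2F6 and FOXM1 in shCON. E2F4 was thus the most abundant member in shCON, and MYBL2 and E2F4 could not be ordered in shMAGED2. E2F2 remained a minor E2F after its rise, at 12.4% and 11.2% of the activator FPKM in shMAGED2, against 6.04% and 5.74% in shCON.

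Summed over E2F1 to E2F8, the pool of E2F transcripts was 133 and 138 FPKM in shMAGED2, against 80.9 and 77.2 FPKM in shCON. The activators E2F1, E2F2 and E2F3 made up 38.1% and 42.3% of it in shMAGED2, and 29.3% and 30.1% in shCON. E2F4 and E2F5 held 44.6% and 38.5% in shMAGED2 and 51.0% and 51.3% in shCON. The share of the atypical repressors, nearly all E2F8, was 11.0% and 8.63% in shMAGED2, against 3.55% and 4.23% in shCON. The activator share and the atypical share were therefore both higher in the knockdown libraries, and the shares of E2F4 with E2F5 and of E2F6 were lower. E2F1 alone supplied most of the activator transcripts in both groups, 77.7% and 78.5% in shMAGED2 and 71.6% and 72.9% in shCON. These sums are descriptions of transcript levels and were not tested.

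**Figure D3:**
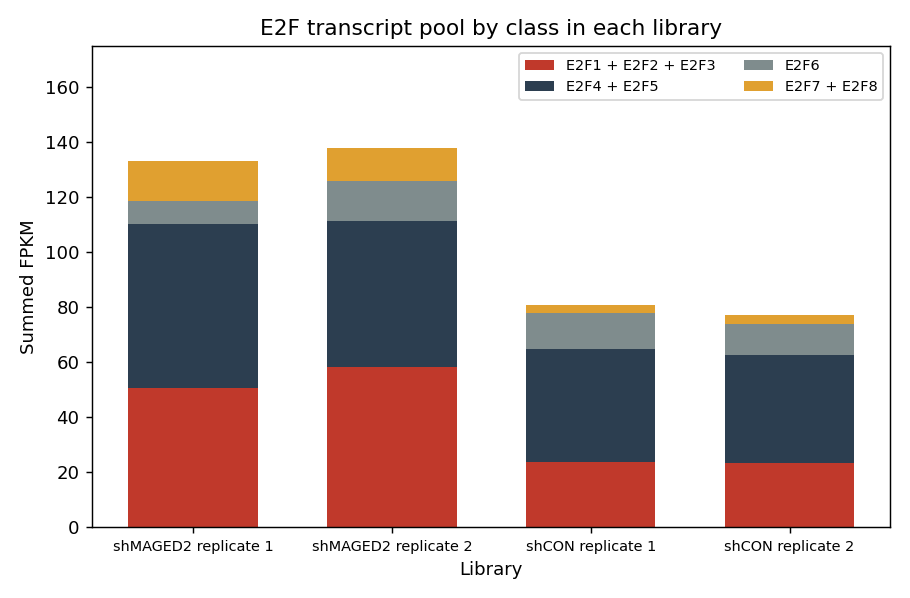
Summed FPKM of the E2F genes in each library, stacked by class, with shMAGED2 libraries left of shCON libraries. The bars reach 133 and 138 FPKM in shMAGED2 and 80.9 and 77.2 FPKM in shCON, and the parts for E2F1 to E2F3 (red) and for E2F7 with E2F8 (orange) are taller in shMAGED2.

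Transcripts of the proteins that E2F factors bind changed unevenly. Of the DP partners, with which E2F1 to E2F6 form dimers, TFDP1 rose to 196 and 202 CPM in shMAGED2, against 99.5 and 105 CPM in shCON (log2 change 0.96, SE 0.09; edgeR adjusted p = 0.00199). TFDP2 had a log2 change of −0.18 (SE 0.09; edgeR adjusted p = 0.217), which passed without shMAGED2 replicate 1 (−0.19, edgeR adjusted p = 0.0252) or 2 (−0.17, 0.046), and TFDP3 had 0 counts. Of the pocket proteins, RBL1 (p107), itself an E2F target, rose by 1.10 on the log2 scale (SE 0.10; edgeR adjusted p = 0.00179) and RB1 by 0.54 (SE 0.13; edgeR adjusted p = 0.0324). RBL2 (p130), the pocket protein of quiescent cells, fell to 138 and 139 CPM in shMAGED2, against 181 and 172 CPM in shCON (log2 change −0.35, SE 0.09; edgeR adjusted p = 0.037). The calls of RB1 and RBL2 ended without shCON replicate 1 (edgeR adjusted p = 0.212 and 0.403) and without shCON replicate 2 (0.202 and 0.305), and on log2(FPKM + 1) (limma adjusted p = 0.0533 and 0.0523).

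In the MuvB core, the shared scaffold of DREAM, MYBL2 and FOXM1 complexes, 1 of 5 genes rose and 0 fell, a count near the 12.3% of all tested genes that rose. LIN9, a subunit that contacts MYBL2, had 15.2 and 14.4 CPM in shMAGED2, against 6.30 and 6.00 CPM in shCON (log2 change 1.26, SE 0.17; edgeR adjusted p = 0.00592). LIN54, which contacts DNA, had a log2 change of 0.43, LIN52 of 0.34, RBBP4 of 0.06 and LIN37 of 0.04, and none of these passed. LIN54 passed on log2(FPKM + 1) with low genes filtered out (log2 change 0.56, limma adjusted p = 0.0368) and without shMAGED2 replicate 2 (0.56, edgeR adjusted p = 0.00016), and LIN52 without shMAGED2 replicate 1 (0.42, edgeR adjusted p = 0.03). LIN37 overlaps a coding gene on the same strand. The other MYB genes, MYBL1 and MYB, both rose, against 12.3% of all tested genes. MYB passed the filter on low counts only through shMAGED2, so for this gene the filter favoured a rise. MYBL1 (A-MYB) had 53.0 and 39.8 CPM in shMAGED2, against 12.7 and 12.0 CPM in shCON (log2 change 1.91, SE 0.18; edgeR adjusted p = 0.00179). MYB (c-MYB) was low, at 1.26 and 1.47 CPM in shMAGED2 and 0.2865 and 0.1704 CPM in shCON (log2 change 2.54, SE 0.59; edgeR adjusted p = 0.0301), and missed the threshold without either shCON library (edgeR adjusted p = 0.105 and 0.161) or without shMAGED2 replicate 2 (0.0506).

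None of the 12 genes of the Polycomb complex that holds E2F6 passed the test, against 23.9% of all tested genes called in either direction, with log2 changes from −0.22 (RING1) to 0.30 (HDAC1), both named after their values were seen. HDAC1 alone had an unadjusted p under 0.05 (edgeR, 0.0441), and DESeq2 called 0. With a library left out, the log2 change of HDAC1 was 0.20 to 0.40 and that of RING1 −0.46 to −0.01. Some genes of this list passed when a shMAGED2 library was left out, where calls over all genes were also more numerous. Of 8 germline genes that E2F6 and its partners keep silent in somatic cells (known in part from mouse), 3 could be tested. Of these, 2 fell and 0 rose, against 11.6% of all tested genes that fell and 12.3% that rose. The 2 that fell, DAZL and MOV10L1, passed the filter on low counts only through shCON. The filter thus favoured a fall, and the count is not a result about the list. DAZL, an RNA-binding protein of germ cells, had 0 and 4 counts in shMAGED2, against 117 and 89 in shCON. Over the summed counts, shCON exceeded shMAGED2 by 53.1 times (95% counting interval 20.4 to 197). MOV10L1, a helicase of the piRNA pathway, had 3 and 0 counts in shMAGED2, against 51 and 78 in shCON (ratio of shCON over shMAGED2 44.3, 95% counting interval 14.8 to 218). The edgeR adjusted p-values were 0.00658 and 0.016, and that of MOV10L1 was 0.0539 without shCON replicate 2. E2F6 itself was not called, and 3 of the 8 germline genes had 0 counts in every library.

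Cyclins and kinases that act on pocket proteins and FOXM1, with the phosphatase CDC25A, formed 1 list. Of its 11 tested genes, 9 rose and 0 fell, against 12.3% of all tested genes that rose and 11.6% that fell. The median log2 change in the list was 1.30. Of the 12 genes in this list, 6 are also among the G1/S or G2/M targets below. CCNA2, the cyclin of S and G2 phase, had 149 and 143 CPM in shMAGED2 and 43.0 and 45.8 CPM in shCON (log2 change 1.71, SE 0.10; edgeR adjusted p = 0.000774). Its partner CDK2 rose by 1.37 (SE 0.11), the mitotic cyclin CCNB1 by 1.56 (SE 0.13) and the phosphatase CDC25A, an activator of these kinases, by 1.57 (SE 0.16) on the log2 scale. The genes that did not pass were CCND1 (−0.12, SE 0.09) and CDK4 (0.03, SE 0.15), named after their values were seen, which act on RB1 early in G1. CCND3, another cyclin D gene and also named afterwards, rose by 1.16 on the log2 scale (SE 0.12, edgeR adjusted p = 0.00246). CDK6, also named afterwards, passed narrowly (0.48, SE 0.13; edgeR adjusted p = 0.0491) and missed the threshold in 11 of 17 other settings, with adjusted p up to 0.338. CCND1 passed downward without shMAGED2 replicate 2 (−0.18, edgeR adjusted p = 0.000232), and CDK4 passed upward without shMAGED2 replicate 1 (0.23, 0.000887) and downward without shMAGED2 replicate 2 (−0.21, 0.00205). The number of genes that rose was 6 without shCON replicate 1. Of 7 CDK inhibitors, 3 could be tested. Of these, 1 fell and 0 rose, against 11.6% of all tested genes that fell and 12.3% that rose. CDKN1A (p21) had 179 and 183 CPM in shMAGED2, against 253 and 252 CPM in shCON (log2 change −0.48, SE 0.09; edgeR adjusted p = 0.0133), a call that ended without shCON replicate 1 (edgeR adjusted p = 0.2) or 2 (0.196). CDKN1B had a log2 change of 0.00 (SE 0.13) and CDKN2D of 0.14 (SE 0.36), and neither passed; CDKN2D was higher without shMAGED2 replicate 1 (0.57, edgeR adjusted p = 0.0165). CDKN2A, CDKN2B, CDKN2C and CDKN1C had 0 counts in all 4 libraries; U87-MG is known to have lost the locus of CDKN2A and CDKN2B.

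All 6 genes that govern the turnover of the factors' proteins rose, against 12.3% of all tested genes. Of these, CCNF, CDC20 and CKS1B are counted again among the G2/M targets below and FBXO5 among the G1/S targets. CDC20, an activator of the anaphase-promoting complex, rose by 1.74 (SE 0.13), CCNF, whose product targets activator E2Fs for degradation, by 1.70 (SE 0.15), and FBXO5, an inhibitor of the anaphase-promoting complex, by 1.35 (SE 0.14) on the log2 scale. CKS1B rose by 1.10 (SE 0.13), its partner SKP2 by 0.79 (SE 0.13) and FZR1, which directs degradation of FOXM1, by 0.49 (SE 0.11). On FPKM values FZR1 missed the threshold (limma adjusted p = 0.0791 on log2(FPKM + 1), 0.126 on the same scale unfiltered and 0.0802 on log2(FPKM + 0.1)). The edgeR adjusted p-values of the 6 were 0.00114 to 0.0246, and SKP2 missed the threshold without shCON replicate 1 (0.102) or 2 (0.117), as did FZR1 (0.186 and 0.286), which also missed it with library size alone (0.0509). Of the FOXO factors, among which FOXO3 is known to restrain FOXM1, FOXO4 fell to 5.06 and 4.57 CPM in shMAGED2, against 9.88 and 8.08 CPM in shCON (log2 change −0.90, SE 0.22; edgeR adjusted p = 0.0331), which was lost without shCON replicate 1 (edgeR adjusted p = 0.252) or 2 (0.094). FOXO1 had a log2 change of 0.45 and FOXO3 of 0.12, and neither passed.

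All genes of the G1/S and G2/M target lists, which were chosen with earlier results of these data known, rose in the main test. Of 47 G1/S genes known as E2F targets, 47 rose and 0 fell, against 12.3% of all tested genes that rose, with log2 changes of 0.69 to 2.16 and a median of 1.30 (0.00 over all tested genes). RRM2, a subunit of ribonucleotide reductase, had 354 and 378 CPM in shMAGED2, against 94.9 and 89.5 CPM in shCON (log2 change 1.99, SE 0.10; edgeR adjusted p = 0.000727). TYMS, which makes thymidylate, rose by 2.01 (SE 0.11), and the helicase subunits MCM4 and MCM3 by 1.46 (SE 0.09) and 1.51 (SE 0.09) on the log2 scale. RRM2 is 1 of 9 genes in this list with exons shared, on their own strand, with another coding gene. The count was 39 without shCON replicate 1 and 43 without shCON replicate 2.

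Of 39 G2/M genes known as targets of MYBL2 and FOXM1, 39 rose and 0 fell, against 12.3% of all tested genes that rose, with log2 changes of 0.95 to 2.28 and a median of 1.602. KIF20A, a kinesin of cytokinesis, had 90.0 and 81.2 CPM in shMAGED2, against 18.5 and 16.6 CPM in shCON (log2 change 2.28, SE 0.13; edgeR adjusted p = 0.00077). The mitotic kinase AURKA rose by 1.72 (SE 0.10), the cytokinesis scaffold ANLN by 1.80 (SE 0.10) and CCNA2, shared with the cyclin list, by 1.71 (SE 0.10). The count was 38 without either shCON library. Summed over the list, the level was 5289 and 4903 CPM in shMAGED2 and 1628 and 1670 CPM in shCON, and it was 4488 and 4558 CPM in shMAGED2 and 1792 and 1756 CPM in shCON for the G1/S list.

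Of 14 tested apoptosis genes linked to E2F1, 4 fell and 0 rose, against 11.6% of all tested genes that fell and 12.3% that rose. The median log2 change was −0.27. With so few genes, 0 rising is near the share over all genes and is not a result about the list. TP73, 1 of the 14, passed the filter on low counts only through shCON, so for this gene the filter favoured a fall. It had 7 and 4 counts in shMAGED2, against 18 and 14 in shCON, and was not called. BBC3 (PUMA) had 2.85 and 4.55 CPM in shMAGED2, against 9.22 and 10.7 CPM in shCON (log2 change −1.42, SE 0.28; edgeR adjusted p = 0.0187). BCL2L11 (BIM) fell by 1.05 (SE 0.22), the kinase MAP3K5 (ASK1) by 0.89 (SE 0.18) and HRK by 0.43 (SE 0.11) on the log2 scale. BBC3, BCL2L11 and HRK encode BH3-only proteins, which promote apoptosis. The number that fell was 1 without shCON replicate 1 and 0 without shCON replicate 2, while the changes themselves stayed of similar size for BBC3 (−1.31 without shCON replicate 2), BCL2L11 (−1.11 and −0.99) and MAP3K5 (−0.92 and −0.85, without shCON replicate 1 and 2). Over all genes the number that fell was 533 and 614 in the same fits, against 1775 with all 4 libraries. The log2 change of HRK was −0.53 without shCON replicate 1 and −0.33 without shCON replicate 2. On log2(FPKM + 1) and log2(FPKM + 0.1) HRK missed the threshold (limma adjusted p = 0.0825 and 0.0848), and 3 genes of the list fell. On unfiltered log2(FPKM + 1) none of the 14 passed (limma).

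**Figure D4:**
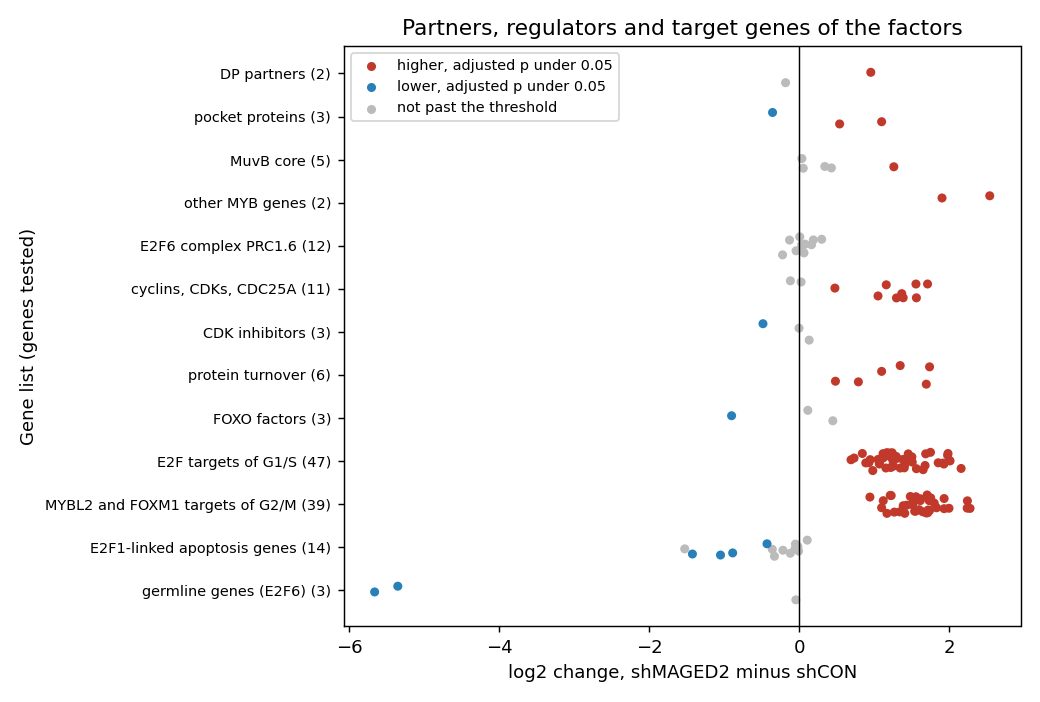
Log2 change (shMAGED2 minus shCON) of every tested gene in the lists of partners, regulators and targets, with the number tested in parentheses; red and blue points passed an adjusted p of 0.05 upward and downward, and grey points did not. All 47 G1/S and 39 G2/M genes lie right of 0, while the Polycomb list lies within −0.22 to 0.30; the 2 lowest points, DAZL and MOV10L1, rest on 4 and 3 counts in shMAGED2.

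Genes whose pattern over the 4 libraries was most like that of a member were sought among 11223 other genes averaging 5 CPM or more, by the root mean square difference of log2 CPM deviations from each gene's own mean. With 2 libraries a group, this measure mostly reads the size of the group difference and the order within the knockdown pair. Nearest to E2F1 were NCAPG2, a condensin II subunit (difference 0.0198), WEE1, the kinase that restrains CDK1 (0.0202), and an unannotated gene model (0.0253). Nearest to E2F2 were KIF20A (0.0403), C6orf141 (0.0435) and POLE2, a subunit of DNA polymerase epsilon (0.0665). MYBL2 was nearest to RNFT2 (0.0294), the mitotic kinase PLK1 (0.0535) and the centrosome protein WDR62 (0.0623). FOXM1 was nearest to the kinesin KIF24 (0.0351), the spindle protein TACC3 (0.0373) and the kinesin KIF15 (0.0383).

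The calls of E2F1, E2F2, E2F8, MYBL2 and FOXM1 held in each of 17 other settings, among them other normalisations, DESeq2, limma-voom, FPKM values and each library left out. Their log2 changes ranged from 1.28 to 1.44 for E2F1, 1.64 to 2.32 for E2F2, 1.82 to 2.41 for E2F8, 1.86 to 2.26 for MYBL2 and 1.59 to 1.99 for FOXM1. The lowest value of E2F2 came from log2(FPKM + 1), a scale that understates changes of low genes.

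**Figure D5:**
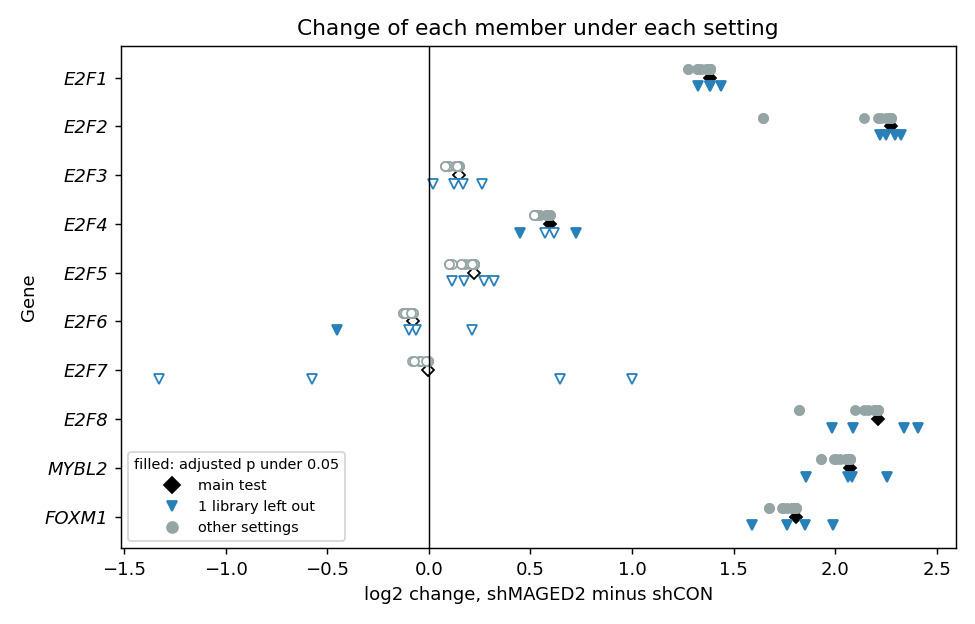
Log2 change of each member in the main test (black diamonds), with 1 library left out (blue triangles) and under other settings (grey circles); filled symbols passed an adjusted p of 0.05. E2F6 runs from −0.45 to 0.21 and E2F7 from −1.33 to 1.00 with a library left out, while E2F1, E2F2, E2F8, MYBL2 and FOXM1 stay at 1.28 or above throughout.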

How the data were processed

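Gene counts are whole numbers per library as deposited, not normalised, and FPKM values are the authors' deposited values per gene length and library total. Both were made on hg38 with HISAT2, StringTie and SAMtools, per the submitters' processing notes, which give no versions. Annotation, strand setting and handling of multiply matching reads were not given in the sources used here. Columns were matched to samples by description and to groups and replicate numbers by title.

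Counts were tested in edgeR 4.0.16 (R 4.3.3) with filterByExpr, TMM scaling and a robust quasi-likelihood fit with group as the only term on all 4 libraries, two-sided, adjusted by Benjamini-Hochberg over 15293 genes, with a threshold of 0.05. Dispersion corresponded to a biological coefficient of variation of 0.167, and 2 residual degrees of freedom remained. SEs come from the F statistic, CPM uses TMM-scaled totals, and SDs are over 2 libraries. In simulated counts for 15293 genes of this comparison, 66, 65 and 65 genes were set to change by 1.5-fold, 2-fold and 4-fold. The test found 19.7%, 67.7% and 83.1% of these. Of 127 calls 16 were false, a larger share than the threshold of 0.05. The data gave 3649 calls, many more than the simulation, so these shares may not carry over.

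The members, gene lists and tests were chosen with earlier results of these data known. The naming rule took all members, every gene of lists of up to 7 genes, the 4 smallest p per direction in longer lists, and the 3 genes most like each of E2F1, E2F2, MYBL2 and FOXM1. Alternatives were DESeq2 1.42.0, limma 3.58.1 (voom, and trend on log2(FPKM + 1) or log2(FPKM + 0.1), with at least 1 FPKM in 2 libraries or unfiltered), other size factors and filters, estimation without the robust option, a block for replicate number, and leaving out each library in turn. Restriction to the 19974 entries with an Ensembl identifier was added after seeing the data. Exon overlaps come from GENCODE 29.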

Additional observations from a re-analysis of the deposited data

How the results depend on the processing

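With a library left out, genes higher in shMAGED2 numbered 567 to 3725 and genes lower 533 to 3722, fewest without a shCON library; the lone library of a group is then assumed to vary like the other group. In limma on log2(FPKM + 0.1) 1236 genes were higher, and on unfiltered log2(FPKM + 1) 642 were higher and 717 lower; the cause was not tested. Members higher numbered 5 to 6 and members lower 0 to 1 with a library left out, the 1 being E2F6 without shMAGED2 replicate 2. The log2 change of E2F4 was 0.45 to 0.72 with a library left out and 0.52 on unfiltered log2(FPKM + 1), where it missed the threshold (adjusted p = 0.0687). E2F6 ranged from −0.45 to 0.21 and E2F7 from −1.33 to 1.00 (0.65 without shMAGED2 replicate 1) with a library left out. E2F7 could not be fitted under 3 settings that filter on level.

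Uncalled named genes near 0 changed sign. CDKN1B was −0.00207 with DESeq2 size factors, −0.0456 with upper-quartile factors, −0.0563 with library size alone, −0.00132 in DESeq2, −0.0572 and −0.0614 on log2(FPKM + 1) and log2(FPKM + 0.1), −0.0572 unfiltered, −0.0202 with a 5 CPM filter, −0.0102 with Ensembl entries, and −0.12 to 0.11 with a library left out. LIN37 was −0.00819 with upper-quartile factors, −0.025 with library size alone, −0.0685 and −0.0763 in the FPKM fits, −0.0685 unfiltered, and −0.0463 to 0.117 with a library left out. CDKN2D ranged from −0.51 to 0.57 with a library left out, and RBBP4 was −0.00247 with library size alone. CDK4 was −0.0184 with upper-quartile factors, −0.0259 with library size alone, −0.117 and −0.118 in the FPKM fits, −0.117 unfiltered, and −0.21 to 0.23 with a library left out.

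The replicate numbers did not pair the libraries (correlation of same-numbered deviations across genes −0.0182). With a replicate block 1706 genes were higher and 1630 lower, 6 members rose and 0 fell, CDKN1B was −0.00415, and of the named genes RBL2 (adjusted p = 0.0739) and CDK6 (0.0605) lost their calls. On unfiltered log2(FPKM + 1) the G1/S list had 38 and the G2/M list 34 genes higher, and CDKN1A, FOXO4, SKP2, MYB and MOV10L1 missed the threshold (limma adjusted p = 0.0666, 0.0731, 0.0686, 0.0699 and 0.0856). Of 58 genes besides the members that were followed across settings, CCND3 not among them, 33 kept direction and side of the threshold in every setting. Depth limits what can be said of E2F7, MYB, MOV10L1 and DAZL, which had few counts.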
